A study of Mus musculus with 6 samples.

Results

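The comparison set the heart transcriptome of mice given ginsenoside Rh2 at 30 mg/kg together with doxorubicin (Rh2-30 mg/kg + Dox) against that of mice given doxorubicin without Rh2 (Dox), and so addressed what the higher dose of Rh2 adds to a heart that is already exposed to Dox. Genes with a mean of 10 or more counts over the 6 libraries of the series were taken, which left 18328 of 45777 genes, and the libraries compared were 2 of the 6. All animals were female BALB/c nude mice (CAnN.Cg-Foxn1nu/Crl), given as 6 weeks of age, carrying subcutaneous tumours of MDA-MB-231, a human breast cancer cell line. Treatment began on day 7 after the tumour cells were injected and lasted 3 weeks. Dox was injected on alternate days at 2 mg/kg to a cumulative dose of 22 mg/kg, and Rh2 was injected daily at 30 mg/kg. The Dox animals received the same course of Dox and no Rh2. A further library combined Dox with Rh2 at 20 mg/kg (Rh2-20 mg/kg + Dox), and 3 libraries without Dox came from animals given Rh2 alone at either dose (Rh2-20 mg/kg and, at the higher dose, Rh2-30 mg/kg) or neither compound (Control), all of them tumour-bearing mice of the same strain. Below, the Rh2-30 mg/kg + Dox library is called the combination and the Rh2-20 mg/kg + Dox library the lower-dose combination. Each library held RNA pooled from 5 hearts, and each condition had 1 library, so no spread between animals could be measured, no test of this comparison was possible, and every difference below is a difference between libraries. Nude mice lack a functional thymus and therefore most T cells, while their B cells, natural killer cells and myeloid cells are kept.

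Dox is an anthracycline that intercalates into DNA and traps type II topoisomerases on it, and injury to the heart limits its use. Rh2 is a steroid-like saponin of ginseng. Interferon gamma, a cytokine of natural killer and T cells, acts on immunity-related GTPases, guanylate-binding proteins and the genes of antigen presentation. Ventricular muscle draws most of its energy from mitochondrial oxidation of fatty acids, and a whole heart also holds fibroblasts, vessels, macrophages, blood, atrial muscle and some fat.

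Over the tested genes the median log2 ratio, Rh2-30 mg/kg + Dox over Dox, was -0.02, and the 5th to 95th percentiles ran from -1.29 to 0.74. The ratio was taken on counts scaled by TMM, a normalization that assumes most genes do not differ, and these scaled values are called normalized counts. Of the 18328 genes, 505 (2.76%) were 2-fold or more higher in the Rh2-30 mg/kg + Dox library and 1348 (7.35%) were 2-fold or more lower, 2.67 times as many. The counts themselves were precise: the 95% interval from counting error excluded no difference for 64.6% of the tested genes, with a median half-width of 0.07 on the log2 scale where the mean count was 1000 or more and 0.82 where it was 10 to 100. Most of the genes past 2-fold were thinly counted, 435 of the 505 higher and 776 of the 1348 lower having a mean of 10 to 100 counts, whereas among the 8741 genes with a mean of 1000 or more 18 were higher and 155 lower. The 33 genes that just entered the filter, at a mean of 10.0 counts, had a median log2 ratio of -0.17, and the 38 that just missed it, at a mean of 9.83, had 0.04. Libraries held 86164411 to 90621002 counts. Myh6, which encodes the main adult myosin heavy chain of the mouse heart, had 1205754 normalized counts in Dox and 1371004 in the combination, and Tnnt2, which encodes cardiac troponin T, had 149119 and 161477, as the heart label implies.

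**Figure D1:**
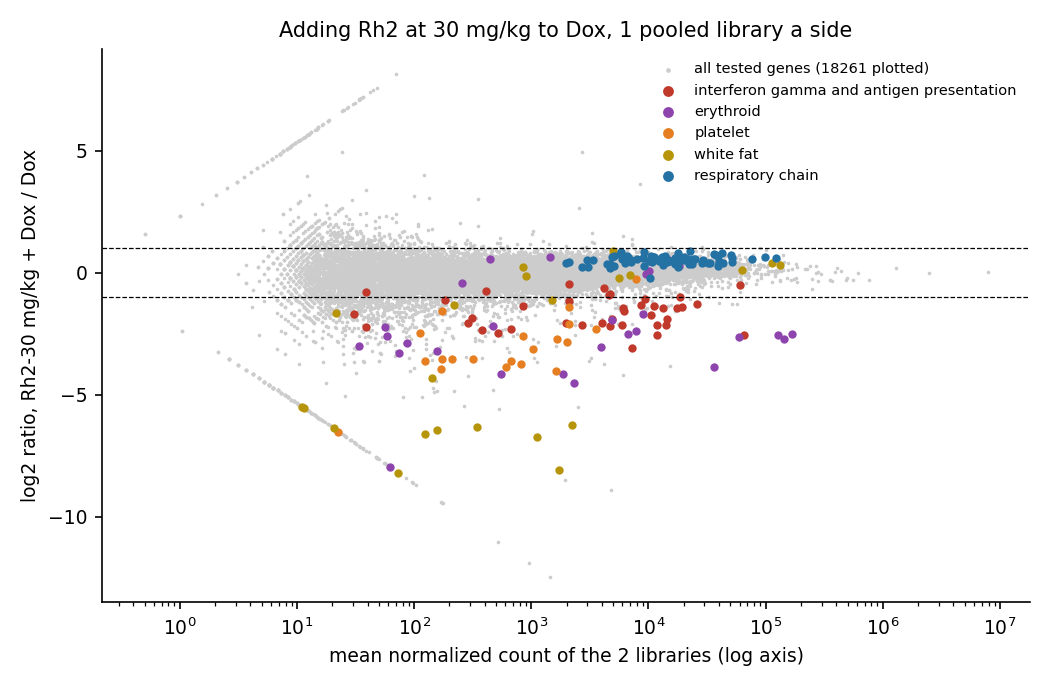
Each grey point is a tested gene with counts in the 2 libraries, with the mean of its normalized counts on a log axis and its log2 ratio, Rh2-30 mg/kg + Dox over Dox, on the y axis; dashed lines mark 2-fold, and the diagonal rows hold genes with no count in 1 of the libraries. Interferon gamma and antigen presentation and platelet genes and most erythroid and white fat genes lie below 0, and 76 of 77 respiratory chain genes lie above 0 and below 2-fold.

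The genes of interferon gamma response and antigen presentation were lower in the combination library as a group. All 40 tested members had a log2 ratio below 0, the median was -1.63 against -0.02 for all tested genes, and 32 of the 40 were 2-fold or more lower with none 2-fold higher, beside the background of 7.35% and 2.76%. The largest ratio was that of Igtp, an immunity-related GTPase, with 12975 normalized counts in the Dox library and 1532 in the combination library, a log2 ratio of -3.08 with a 95% counting interval of -3.16 to -3.00. In the other libraries Igtp stood at 1537 (Control), 1446 (20 mg/kg Rh2 alone), 1747 (30 mg/kg Rh2 alone) and 2166 (the lower-dose combination). The Dox library was therefore the high one, and the combination library lay at the level of Control. The guanylate-binding protein Gbp4, which has the most counts of the list in Dox, had 111748 normalized counts in Dox and 18756 in the combination, with 32894 in Control, 20924 in 20 mg/kg Rh2 alone, 18187 in 30 mg/kg Rh2 alone and 22446 in the lower-dose combination. A further GTPase, Iigp1, was 5.91 times lower (20108 to 3403), and the paralogous pair Tgtp1 and Tgtp2, between which reads can be split, both had log2 ratios of -2.16. Over the list, 37 of 40 members had their highest level of the 6 libraries in Dox (18.7% of all tested genes did). In the combination 17 of 40 (42.5%) had their lowest, beside 23.1% of all tested genes.

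Within the group, Ciita and the class II genes lay furthest below Control. Ciita, the master regulator of class II genes, had 629.8 normalized counts in Dox and 123 in the combination, against 376 in Control, 254 in 20 mg/kg Rh2 alone, 391 in 30 mg/kg Rh2 alone and 165 in the lower-dose combination. The class II beta chain H2-Ab1 followed it, at 883 in Dox, 159.6 in the combination, 299 in the lower-dose combination and 703, 547 and 615 in 30 mg/kg Rh2 alone, 20 mg/kg Rh2 alone and Control, so that both libraries that combined Rh2 with Dox were the low ones. The invariant chain Cd74 had a log2 ratio of -2.05 and the class II gene H2-Eb1 -2.32. For the class I pathway the picture was that of Igtp: Nlrc5, the class I regulator, had 22726 normalized counts in Dox and 6062 in the combination, with 3462 to 5494 in the other 4 libraries, and the peptide transporter subunit Tap1 had 6425 and 1526, with 1369.9 to 1975 elsewhere. The light chain B2m (-0.99), the transcription factor Irf1 (-0.92) and the feedback inhibitor Socs1 (-0.78) differed by less than 2-fold. The class I genes themselves (H2-K1 -1.35, H2-D1 -0.50, H2-Q4 -1.40) share sequence, so that reads can be split between them. Ifng itself was not among the tested genes.

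Interferon-responsive promoters often carry an interferon-stimulated response element. The promoters of Igtp and Gbp3 are shown as well-counted members with low ratios that hold its core letters, so their matches were set by the choice. Some members with lower ratios than Gbp3 (-2.17), such as Gbp4 (-2.57), are not shown. Of the 40 members, 29 matched a RefSeq promoter (GRCm38.p6, the assembly of mm10), and 14 of these (48.3%) held the core letters GAAANNGAA on either strand within 250 bases before to 50 bases after the start, against 9.00% of the 12805 promoters of tested genes. Genes of the type I interferon response, which were lower by less (median -0.75), held these letters in 20 of 34 promoters (58.8%). The 250 bases before the start of Igtp (chr11:58199306-58199555, plus strand) and of Gbp3 (chr3:142559794-142560043, plus strand) read, with the core letters in capitals, which in Gbp3 are 2 overlapping matches on the reverse strand:
Igtp: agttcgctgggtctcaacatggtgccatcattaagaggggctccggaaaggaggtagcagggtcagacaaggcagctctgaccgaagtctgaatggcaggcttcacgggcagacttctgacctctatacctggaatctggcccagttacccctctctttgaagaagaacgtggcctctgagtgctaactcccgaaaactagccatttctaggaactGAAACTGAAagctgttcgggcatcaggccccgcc
Gbp3: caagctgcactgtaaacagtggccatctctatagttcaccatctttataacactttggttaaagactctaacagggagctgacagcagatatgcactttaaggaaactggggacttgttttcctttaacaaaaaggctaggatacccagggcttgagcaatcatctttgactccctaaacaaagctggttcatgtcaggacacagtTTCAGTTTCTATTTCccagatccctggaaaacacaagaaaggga
Gbp3, a guanylate-binding protein, had 7704 normalized counts in Dox and 1714 in the combination, and 2379, 2673, 3079 and 3874 in the lower-dose combination, 20 mg/kg Rh2 alone, 30 mg/kg Rh2 alone and Control. A match to these letters is a description of the sequence and no evidence that the element was bound.

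**Figure D2:**
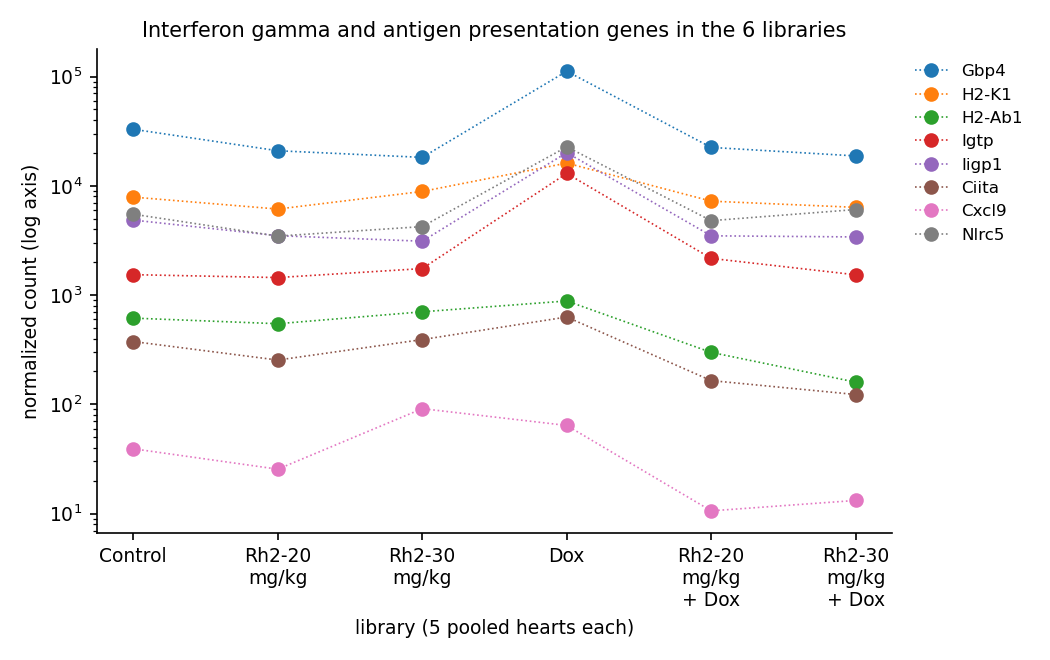
Normalized counts (log axis) of 8 interferon gamma and antigen presentation genes in the 6 libraries of 5 pooled hearts each; dotted lines join the points of a gene and imply no order. The Dox library is the highest for 7 of the 8, and Cxcl9, at 10.6 to 91.3 normalized counts, is highest in Rh2-30 mg/kg.

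Genes of the type I interferon response were lower by less. Their median was -0.75, 43 of 47 had a ratio below 0 and 11 (23.4%, beside 7.35% of all tested genes) were 2-fold or more lower. Rsad2, which encodes the antiviral enzyme viperin, stood apart with 5893 normalized counts in Dox and 525 in the combination, 11.2 times lower, whereas the other libraries held 1710.4 to 2794. The nucleic acid sensor Zbp1 (log2 ratio -1.98) and the transcription factor Irf7 (-1.37) also passed 2-fold, while Isg15, a ubiquitin-like modifier, had -0.87. For 37 of the 47 genes (78.7%) the combination library was the lowest of the 6, beside 23.1% of all tested genes. Dox was the highest for 19 (40.4%), beside 18.7%. Against Control, the list's median log2 ratio was 0.02 in Dox and -0.74 in the combination. It was -0.34 in 20 mg/kg Rh2 alone, -0.29 in 30 mg/kg Rh2 alone and -0.37 in the lower-dose combination. All libraries with Rh2 thus had medians below Control, and the combination had the lowest. The interferon gamma list, by comparison, had a median of 0.95 in Dox against Control. Which library stood apart was not tested.

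Immune cell markers were mostly lower as well. Over all tested genes 7.35% were 2-fold or more lower and 2.76% higher. Among genes with a mean of 10 to 100 counts these shares were 17.8% and 9.96%. Macrophage markers had a median of -0.51 with 9 of 36 members 2-fold lower, among them the chemokine receptor Cx3cr1 (229 to 61 normalized counts, log2 ratio -1.90), the complement receptor Vsig4 (-1.68) and the phosphatidylserine receptor Timd4 (-1.35). The general marker Adgre1 differed by less (-0.65), the tissue-resident marker Lyve1 had -0.23, and the haemoglobin scavenger receptor Cd163 was 1.43 times higher. Chemokines and their receptors had a median of -0.83 with 17 of 40 lower and 1 higher, Ccr6, at 0 and 10.2 normalized counts. Ccl2, which recruits monocytes, had 413 normalized counts in Dox, 119 in the combination and 246 to 361 in the other libraries, and its receptor Ccr2 had a log2 ratio of -0.79. Markers of T, NK and B cells had a median of -0.66 with 10 of 28 lower, on few counts: Lck, a kinase of T cells, was counted 50 times in Dox and not at all in the combination, at least 17.2-fold lower when 3 counts are allowed. Among the Toll-like receptors and adaptors the median was -0.09, with Tlr2 (-1.27), Tlr1 (-1.01) and the co-receptor Cd14 (-1.01) 2-fold lower and Tlr4 at -0.05. In the inflammasome and cytokine list (-0.54) the protease Casp1 had 1272 and 505 normalized counts, a log2 ratio of -1.33. In RNA from pooled heart tissue, fewer cells of a type and less RNA per cell cannot be told apart.

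Some neutrophil and mast cell markers were higher, beside 2.76% of all tested genes 2-fold or more higher and 7.35% lower. Among genes with a mean of 10 to 100 counts these shares were 9.96% and 17.8%. Of 23 neutrophil markers 9 were 2-fold or more higher and 2 lower (Ltf -1.48 and Hp -1.56), with a median of 0.36, although their summed normalized count was lower in the combination (11570 against 13350 in Dox). S100a9, a calcium-binding protein of neutrophil cytosol, had 182 normalized counts in Dox and 418 in the combination, but its partner S100a8 had 92.5 and 91.5. Stfa2l1, a stefin, had 22.1 and 107, the decoy interleukin 1 receptor Il1r2 22.1 and 119, and the collagenase Mmp8 44.2 and 169.8. All of these but S100a8 were higher still in the lower-dose combination, at 781, 199.6, 131 and 264. Of 8 mast cell markers 5 were above 0, and the proteases Cpa3 (1.27) and Tpsb2 (1.35) were 2-fold higher, with the Dox library at 116 normalized counts for Cpa3, below the 336 of Control. Hdc, the enzyme that makes histamine, had -0.82, and the summed normalized count of the mast cell markers was 4093 in Dox and 3917 in the combination.

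Genes of mitosis were lower in the combination library. Among 34 mitotic kinases, cyclins and regulators 18 (52.9%, beside 7.35% of all tested genes) were 2-fold or more lower and none higher, with a median of -1.03. For 26 of them (76.5%, beside 23.1%) the combination library was the lowest of the 6. Top2a, the topoisomerase II of dividing cells and a target of Dox, had 1746, 2196 and 2742 normalized counts in Control, 20 mg/kg Rh2 alone and 30 mg/kg Rh2 alone, 835 in Dox, 575 in the lower-dose combination and 119 in the combination. All 3 libraries with Dox lay below all 3 without it, and the combination with the higher Rh2 dose lay 6.99 times below Dox. The proliferation marker Mki67 had the same order, with 12116, 10508 and 9316 in the libraries without Dox and 4018, 2569 and 688 in Dox, the lower-dose combination and the combination. Top2b, the form that is present in resting cardiomyocytes, differed little (23671 and 26828 normalized counts, log2 ratio 0.18). Cdkn3, a phosphatase of cyclin-dependent kinases, had 125 and 11.2 (log2 ratio -3.43, interval -4.52 to -2.59), and Ube2c, the ubiquitin-conjugating enzyme of the anaphase-promoting complex, 217 and 54.9. The mitotic kinase Plk1 did not share this, at 132 and 145.

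The same held at the kinetochore and the spindle. Of 43 kinetochore and spindle checkpoint genes 13 were 2-fold lower and 2 higher (median -0.35), the higher ones being Cenpw (9.5 to 45.8 normalized counts) and Cenpm (0 to 7.1), with the checkpoint kinase-like protein Bub1b at 228 and 25.4 normalized counts and the kinetochore scaffold Knl1 at 1198 and 197. Of 33 mitotic kinesins and cytokinesis genes 15 were 2-fold lower and none higher (median -0.67), Prc1, which bundles the central spindle, having 329 and 68.1. Replication-dependent histones had a median of -0.72 with 18 of 48 lower, led by H3c3 (245 to 48.8). Over all tested genes 7.35% were 2-fold lower and 2.76% higher. The 54 genes of S phase lay near that share, with 4 lower (7.41%), the transcription factor E2f1 (-1.62) among them, and a median of -0.14. So did 38 genes of DNA double-strand break repair, with 3 lower (7.89%), Brca1 (-1.07) among them, and a median of -0.09. Clustered histones are near-identical to each other, and reads of one can be counted for another.

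The promoters of mitotic genes often carry a cell cycle homology region (CHR, TTTGAA) and CCAAT boxes. Of 26 regulators with a RefSeq promoter 16 (61.5%) held TTTGAA and 21 (80.8%) CCAAT on either strand, against 15.3% and 42.8% of all tested promoters, and 16 (61.5%) held both, against 6.38%. The 250 bases before the start of Cdkn3 (chr14:46760291-46760540, plus strand) and of Top2a (chr11:99024190-99024439, minus strand) are shown as members with low ratios that hold both motifs, with every match to either in capitals (TTCAAA and ATTGG are matches on the reverse strand):
Cdkn3: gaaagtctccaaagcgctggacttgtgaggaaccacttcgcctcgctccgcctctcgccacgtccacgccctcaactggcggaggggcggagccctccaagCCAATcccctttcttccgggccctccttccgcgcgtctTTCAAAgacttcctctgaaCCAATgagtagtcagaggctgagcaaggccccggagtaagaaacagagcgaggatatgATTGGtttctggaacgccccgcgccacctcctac
Top2a: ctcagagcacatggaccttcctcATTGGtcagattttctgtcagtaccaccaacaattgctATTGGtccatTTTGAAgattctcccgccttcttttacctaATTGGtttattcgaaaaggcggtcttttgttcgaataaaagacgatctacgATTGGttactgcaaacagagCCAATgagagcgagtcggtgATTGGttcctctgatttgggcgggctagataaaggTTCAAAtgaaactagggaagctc
Cdkn3 held 1 CHR and 3 CCAAT matches in this stretch, and Top2a 2 and 6.

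Red cell and platelet transcripts were lower in the combination library. Of 28 erythroid markers 21 were 2-fold or more lower in the combination, with a median of -2.54. The alpha globin gene Hba-a1 had 287537 normalized counts in Dox and 50509 in the combination, with 105378 in Control, 75842 in 20 mg/kg Rh2 alone, 94108 in 30 mg/kg Rh2 alone and 172113 in the lower-dose combination. Dox was the highest library and the combination the lowest. Alas2, the erythroid enzyme that begins haem synthesis, had 68131 and 4723, 14.4 times lower, and the anion exchanger Slc4a1 of the red cell membrane 4445 and 195. Slc4a1 (log2 ratio -4.51) belonged to the 12 genes with the lowest ratios among those with at least 20 counts in both libraries and 100 in one, as did Tent5c (-4.19) and E2f2 (-4.25), which are not on the list. Genes of other lists that red cells also express in quantity were lower with them: the mitophagy receptor Bnip3l (-1.59), the peroxidase Gpx1 (-1.41) and the ferritin light chain Ftl1 (-1.23) were each 2-fold lower, while the medians of their lists were 0.15 (mitochondrial dynamics and mitophagy), 0.26 (antioxidant genes) and 0.04 (iron genes). The part of blood in these values was not tested.

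Of 20 platelet and megakaryocyte markers 19 were 2-fold or more lower, with a median of -3.32, the lowest of the 57 lists. Tubb1, the platelet beta tubulin, had 265, 236 and 754 normalized counts in Control, 20 mg/kg Rh2 alone and 30 mg/kg Rh2 alone, 3052 in Dox, 4459.6 in the lower-dose combination and 185 in the combination. Both other libraries with Dox were thus high, and the combination library was as low as Control. The platelet chemokine Pf4 (2854 and 432, with 556 in Control) and the integrin Itga2b (3524 and 487, with 526) shared this pattern. The member within 2-fold was F13a1 (-0.27), a clotting factor that macrophages also express.

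Markers of tissues that surround or adjoin the ventricle also separated the libraries. Their counts stand beside 7.35% of all tested genes 2-fold or more lower. Of 22 atrial and natriuretic genes 8 were 2-fold lower, and those that define atrial muscle were almost absent from the combination: Myl7, the atrial regulatory light chain, had 9604 normalized counts in Dox and 19.3 in the combination, against 59.4 in Control, 1165 in 20 mg/kg Rh2 alone, 49295 in 30 mg/kg Rh2 alone and 10234 in the lower-dose combination. Sln, the sarcoplasmic reticulum peptide sarcolipin, was counted 1828 times in Dox and not at all in the combination, at least 630.1-fold lower when 3 counts are allowed. Myl4 (4878 to 108) and Mybphl (1045 to 21.4), both atrial, followed. The atrial natriuretic peptide gene Nppa had 17051 and 6524, a log2 ratio of -1.39, with 3826 in Control, while Nppb, the B-type peptide that ventricles also make under load, was 1.33 times higher (3172 and 4235). For Myl7, Myl4, Mybphl and Sln, Control and the combination were the low libraries and 30 mg/kg Rh2 alone the highest.

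Of 22 white fat markers 14 (63.6%, beside 7.35% of all tested genes) were 2-fold lower. Their median was -2.98, or -2.24 when genes without counts are set to 3 counts. The adipokines Cfd (2205 in Dox, 20.3 in the combination, 304 in Control and 12478 in 30 mg/kg Rh2 alone) and Adipoq (683, 8.1, 59.4 and 3463 in the same order) were the clearest, and Fabp4 (0.13) and Lpl (0.31), which heart endothelium and muscle also express, did not follow. Mesothelial markers had a median of -1.11 with 8 of 15 lower, and 8 lung markers a median of -1.08 on few counts. The lipogenic enzymes Scd1 (6333 to 1690, with 37694 in 30 mg/kg Rh2 alone) and Fasn (8484 to 2932, with 61630 in 30 mg/kg Rh2 alone) were 2-fold lower and were, with the elongase Elovl6 (-1.45), among 4 such genes of 38 in the cholesterol and lipid synthesis list, whose median was -0.14. That share of the list (10.5%) lay near the 7.35% of all tested genes. Hamp, which encodes the iron hormone hepcidin, had 92.5 normalized counts in Dox and 7.1 in the combination, with 1294 in 30 mg/kg Rh2 alone. How much atrium, fat or blood each pool of hearts held and how these tissues responded to treatment cannot be told apart.

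**Figure D3:**
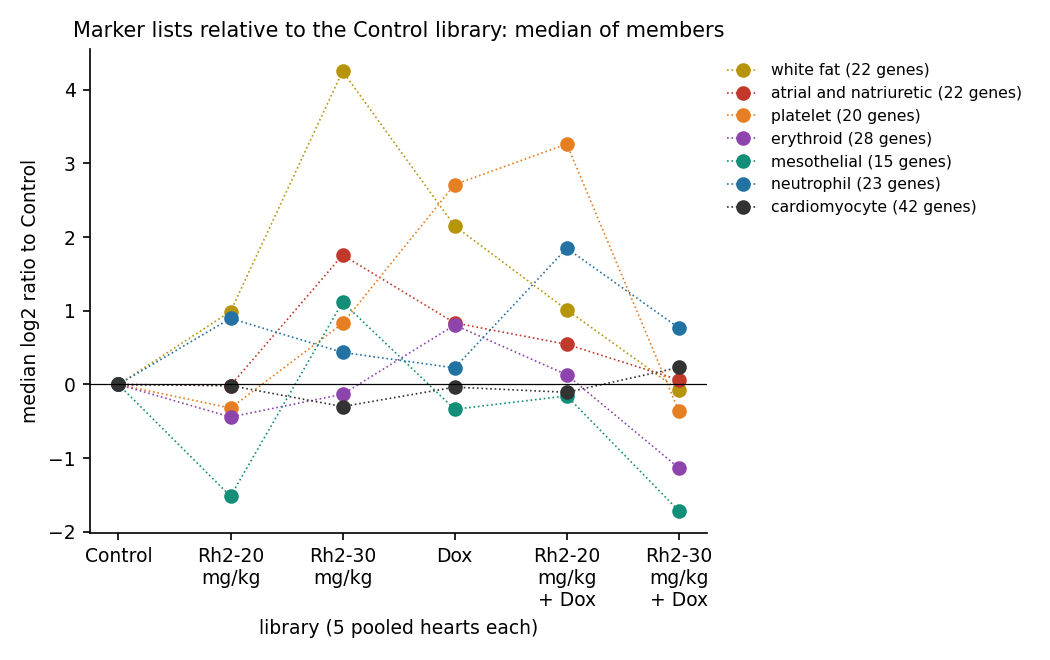
Median over the members of 7 marker lists of the log2 ratio to the Control library, for the 6 libraries of 5 pooled hearts each; dotted lines join the points of a list and imply no order. Platelet markers are at 2.71 in Dox, at 3.26 where Rh2-20 mg/kg was added and at -0.36 in Rh2-30 mg/kg + Dox, white fat markers are at 4.25 in Rh2-30 mg/kg and at -0.08 in Rh2-30 mg/kg + Dox, and cardiomyocyte genes stay between -0.30 and 0.23.

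By list median, genes of the extracellular matrix were lower by less than the platelet, erythroid, white fat and mesothelial markers. Collagen chains lay near the atrial list (-0.52). Of 40 collagen chains 7 (17.5%, beside 7.35% of all tested genes) were 2-fold lower and none higher, with a median of -0.51. Col1a1 had 13839, 13658 and 25229 normalized counts in Control, 20 mg/kg Rh2 alone and 30 mg/kg Rh2 alone, 10915 in Dox, 12858 in the lower-dose combination and 6145 in the combination, and Col3a1 had 23607 in Dox and 12719.6 in the combination, with 38186 in Control. For both of these fibrillar collagens the combination library was the lowest of the 6, and Dox was already below Control. The basement membrane chains Col4a1 (0.08) and Col4a2 (0.30) were not lower. Among 46 genes of TGF-beta signalling, matricellular proteins and myofibroblasts the median was -0.46, 11 being 2-fold lower, among them periostin (Postn, 9224 to 3573), thrombospondin 1 (Thbs1, 5893 to 1183), which platelets also hold, fibromodulin (Fmod, 726 to 132), the latent TGF-beta binding protein Ltbp2 (934 to 183) and the actin-binding protein Tagln (5344 to 1499). Fibronectin (Fn1, -0.87), vimentin (Vim, -0.86) and smooth muscle actin (Acta2, -0.80) were within 2-fold, and the ligand Tgfb1 (-0.07), the receptor Tgfbr1 (-0.27) and Smad2 (0.06) and Smad3 (-0.44), which carry the signal, differed less. Fibroblast markers had a median of -0.71, with Pi16 (-1.06) the member past 2-fold, and Pdgfra, a general fibroblast receptor, at -0.15. Of 17 pericyte and smooth muscle markers, whose median was -0.40, 3 (17.6%) were 2-fold lower. These were smooth muscle calponin (Cnn1, 619 to 90.5), Tagln and Lmod1 (-1.11). Endothelial markers had a median of -0.21 with Plvap (-1.21) past 2-fold. Among 37 metalloproteinases and inhibitors the tissue inhibitor Timp4, which the heart expresses, was 3.05 times higher (1634 to 4986, the highest of the 6 libraries, with 882 in Control), while Timp1 (-0.72) and Mmp2 (-0.34) were lower by less than 2-fold and the protease Adamts8 (266 to 26.4, with 3631 in 30 mg/kg Rh2 alone) by more.

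Genes of energy metabolism and contraction were higher by small and even amounts. Of 77 nuclear-encoded respiratory chain subunits 76 were above 0, with a median of 0.52 and a highest value of 0.87, and for 74 of them the combination library was the highest of the 6, against 20.1% of all tested genes. The complex I subunit Ndufb9 had 19875, 24142 and 20417 normalized counts in Control, 20 mg/kg Rh2 alone and 30 mg/kg Rh2 alone, 16159 in Dox, 21296 in the lower-dose combination and 29493 in the combination, so that Dox was the lowest library and the combination the highest. The ATP synthase subunit Atp5b (77276 to 121886) and the complex II subunit Sdha (37562 to 62840.3) had the same order at the ends. The 13 mitochondrially encoded transcripts did not follow: all were below 0, with a median of -0.31, COX1 having 842890.1 and 679574. Of 50 genes of fatty acid oxidation and PPAR targets 43 were above 0, with a median of 0.57, led by the reductase Decr1 (8186 to 16147, log2 ratio 0.98) and the mitochondrial carnitine carrier Slc25a20 (0.91), with the dehydrogenases Acadvl (0.83) and Acadm (0.79) near them and the entry step Cpt1b at 0.24. Ucp2 (-1.36), an uncoupling protein that blood cells also express, was the member 2-fold lower. Glycolysis and the TCA cycle had a median of 0.53 with 50 of 54 above 0, including the succinyl-CoA ligase subunit Sucla2 (0.86) and Pdk4 (0.82), which restrains pyruvate oxidation and had 10609 normalized counts in Dox, 18729 in the combination and 26919.8 in Control. No member of these lists was 2-fold higher, so none is among the 505.

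Cardiomyocyte and sarcomere genes had a median of 0.29, with 36 of 42 above 0 and the atrial light chains Myl7 and Myl4 as the members past 2-fold. Myh7, the slow myosin heavy chain, was 1.22 times higher (214567 to 261516), Tnnt2 1.08 times, and Ckm, muscle creatine kinase, 1.46 times. Normalized counts are relative to the rest of a library, and the blood, fat and matrix transcripts given above were lower in the same library. Their part in the values of the metabolic and contractile genes was not tested. Cytosolic ribosomal proteins, a comparison list, had a median of 0.07, and genes of calcium handling and ion channels 0.10.

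**Figure D4:**
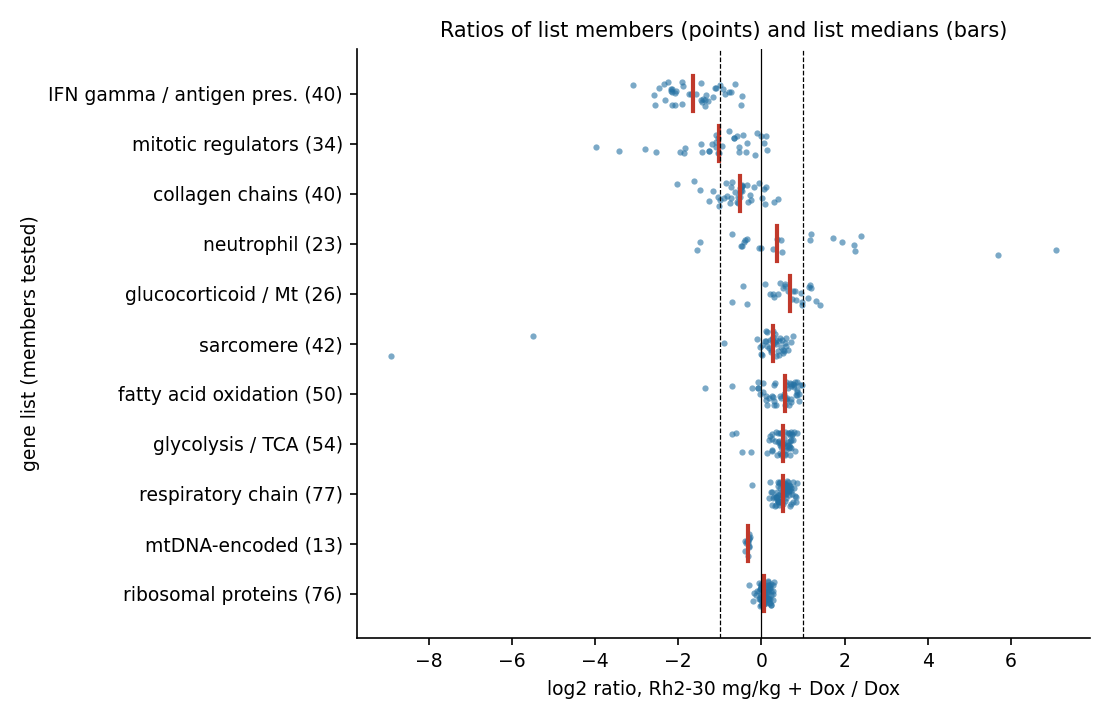
Each point is the log2 ratio, Rh2-30 mg/kg + Dox over Dox, of a member of the named list (number of tested members in brackets), with a red bar at the list's median, a solid line at 0 and dashed lines at 2-fold. The respiratory chain members lie between -0.21 and 0.87, the mitochondrially encoded transcripts lie below 0, and the interferon gamma members lie between -3.08 and -0.46.

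Targets of the glucocorticoid receptor and metallothioneins had the highest median of the lists with 10 or more members, 0.69, with 6 of 26 members at 2-fold or more higher and none lower, beside a background of 2.76%. Fkbp5, a co-chaperone of that receptor, had 1835, 3112 and 4556 normalized counts in Control, 20 mg/kg Rh2 alone and 30 mg/kg Rh2 alone, 4556 in Dox, 5767 in the lower-dose combination and 9934 in the combination. Ddit4, an inhibitor of mTORC1, had 722 in Dox, 789 in Control and 1580.5, 1549, 1591 and 1797 in 30 mg/kg Rh2 alone, the lower-dose combination, 20 mg/kg Rh2 alone and the combination, so that all 4 libraries with Rh2 stood above both without it. Fam107a had the same split, with 198 and 295 without Rh2 and 463 to 785 with it. Mt1, a metal-binding metallothionein, had 4437 in Dox and 10084 in the combination, with 9499 in Control. Hif3a (1.16) and Lcn2 (1.17), which is also a neutrophil marker, completed the 6, and Zbtb16 (0.96), Per1 (0.44) and the receptor gene Nr3c1 (-0.34) were within 2-fold. Cdkn1a, which encodes the cell cycle inhibitor p21 and is a target of both p53 and this receptor, had 387 and 766, with 244, 423, 521 and 657 in Control, 20 mg/kg Rh2 alone, 30 mg/kg Rh2 alone and the lower-dose combination. The list of 34 p53 targets had a median of 0.12, with Ddit4 past 2-fold higher and Psrc1 (-1.38) past 2-fold lower. Mdm2, the ligase that degrades p53, had 0.11 and Bax, a pore-forming death protein, -0.17.

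Several pathways that bear on Dox differed little. Topoisomerases and the enzymes that repair their adducts had a median of 0.02, with Top2a the member past 2-fold, efflux pumps and reductases 0.02, the integrated stress response 0.03 and the circadian clock -0.03, with no member of the clock or efflux lists past 2-fold. Apoptosis and necroptosis genes had -0.15, and Bcl2l1, which opposes apoptosis, had 6154 and 9384 normalized counts (log2 ratio 0.61). Heat shock genes had 0.04, but the near-identical inducible Hsp70 genes Hspa1a (-2.09) and Hspa1b (-2.10) were more than 4-fold lower, at 8884 and 2086 normalized counts for Hspa1a, and were low in 20 mg/kg Rh2 alone too, at 2162. Immediate early genes were split, with 6 of 33 (18.2%, beside 7.35% of all tested genes) 2-fold lower, Egr3 (-1.80) the furthest, and Nr4a1 higher (1.23). The 56 genes whose transcript or protein the study followed had a median of -0.28. Timp4 and Mmp8 were 2-fold higher (3.57%) and Il6, Il1a, Tlr1 and Tlr2 2-fold lower (7.14%). These shares lay near those of all tested genes, 2.76% and 7.35%. Il6 and Il1a were at no more than 15.8 normalized counts in either library.

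Among genes with 20 or more counts in both libraries and 100 in one, Gm, LOC and Rik symbols left out, Mid1-ps1, Mid1 and Erdr1 had the highest ratios. Mid1, a ubiquitin ligase gene (chrX:169685199-169990798), had 1248 normalized counts in Dox and 15691 in the combination, 12.6 times higher, while the other libraries held 1252 to 1906. The pseudogene Mid1-ps1 (167 to 5226), placed on the Y chromosome of the reference although the mice were female, and Erdr1 (75.7 to 623), beyond Mid1 towards the end of the X chromosome, were high in the same library. G530011O06Rik, a non-coding gene within the span of Mid1 and before Erdr1, did not differ (23.1 in Dox and 23.4 in the combination). Mid1 and its pseudogene share sequence, so the reads cannot be assigned between them with certainty, and the tested genes before Mid1 on the chromosome (Msl3 0.11, Arhgap6 -0.36, Hccs 0.39 and, nearest to Mid1, Gm15246 0.70) were within 2-fold. Gm15246 was highest of the 6 libraries in the combination, at 699.6 normalized counts against 429 in Dox. Pkdrej (chr15:85814676-85821733), a receptor of the polycystin family known from sperm, had 709.7 and 4442, with 709 to 848 elsewhere, and its neighbours Ppara (0.45), Cdpf1 (-0.60) and Ttc38 (0.28) did not follow. Below these came Il1r2 (2.40), Stfa2l1 (2.25), Meig1 (2.08), Zdhhc23 (2.04), Npcd (1.98), Mmp8 (1.93), the gluconeogenic phosphatase Fbp2 (1.92) and Pcdh20 (1.79). Of these, Zdhhc23 and Stfa2l1 were 2-fold higher in 30 mg/kg Rh2 alone than in Control as well, at 322 against 58.3 normalized counts and 41.9 against 13.8, and Fbp2 had been low in Dox (147, with 536 in Control and 559 in the combination).

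Of genes with 3 counts or fewer in Dox, 1 had 100 or more counts in the combination, LOC105243223, a long non-coding RNA with 137 counts there and none in the other 5 libraries. In the other direction 19 genes had 3 counts or fewer in the combination and 100 or more in Dox. The most counted were Gm7030, related to class I histocompatibility genes, with 2727 counts in Dox and 1584 to 2065 in the other 4 libraries, then Sln, Gm45935 (988 in Dox, 1605 in the lower-dose combination and none elsewhere), Ces1f (333 in Dox) and Slc10a3 (332 in Dox, and none in either library with 20 mg/kg Rh2). Class I genes and their relatives share sequence, so the value of Gm7030 is uncertain.

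The same dose of Rh2 without Dox, compared with Control on libraries that the Dox comparison does not share, gave another picture. There 1555 genes (8.48%) were 2-fold or more higher and 299 (1.63%) lower, so the balance lay the other way. Of the 1348 genes lower with Dox, 462 (34.3%) were 2-fold or more higher and 55 lower without it, and of the 505 higher with Dox, 135 (26.7%) were higher without it and 39 lower. Lists with opposite medians included those of white fat (-2.98 with Dox and 4.25 without), atrial genes (-0.52 and 1.76), platelets (-3.32 and 0.83) and mesothelium (-1.11 and 1.12). For the white fat, atrial and mesothelial lists the library of 30 mg/kg Rh2 alone had the highest median against Control. For platelet markers Dox (2.71) and the lower-dose combination (3.26) had higher medians against Control than 30 mg/kg Rh2 alone (0.83). The interferon gamma list had -0.13 without Dox and the respiratory chain -0.05, whereas glucocorticoid targets had 0.41, with Fkbp5 (1.31) and Fam107a (1.22) 2-fold higher, as was Cdkn1a (1.09).

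In the lower-dose combination against the same Dox library, 564 genes (3.08%) were 2-fold or more higher and 630 (3.44%) lower. Because both comparisons divide by the Dox library, a value that is particular to that library enters both, and their values are given side by side only. The interferon gamma list had a median of -1.50 at the lower dose and -1.63 at the higher, with 29 and 32 of 40 members 2-fold lower, Igtp at -2.58 and -3.08 and Gbp4 at -2.32 and -2.57. Mitotic regulators had -0.24 and -1.03, the respiratory chain 0.16 and 0.52, collagens -0.08 and -0.51, erythroid markers -0.70 and -2.54, and platelet markers 0.51 and -3.32. For the interferon gamma genes the values of the lower and the higher dose thus lay near each other, and for the other groups they lay further apart, a difference that could not be tested with 1 library a dose.

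**Figure D5:**
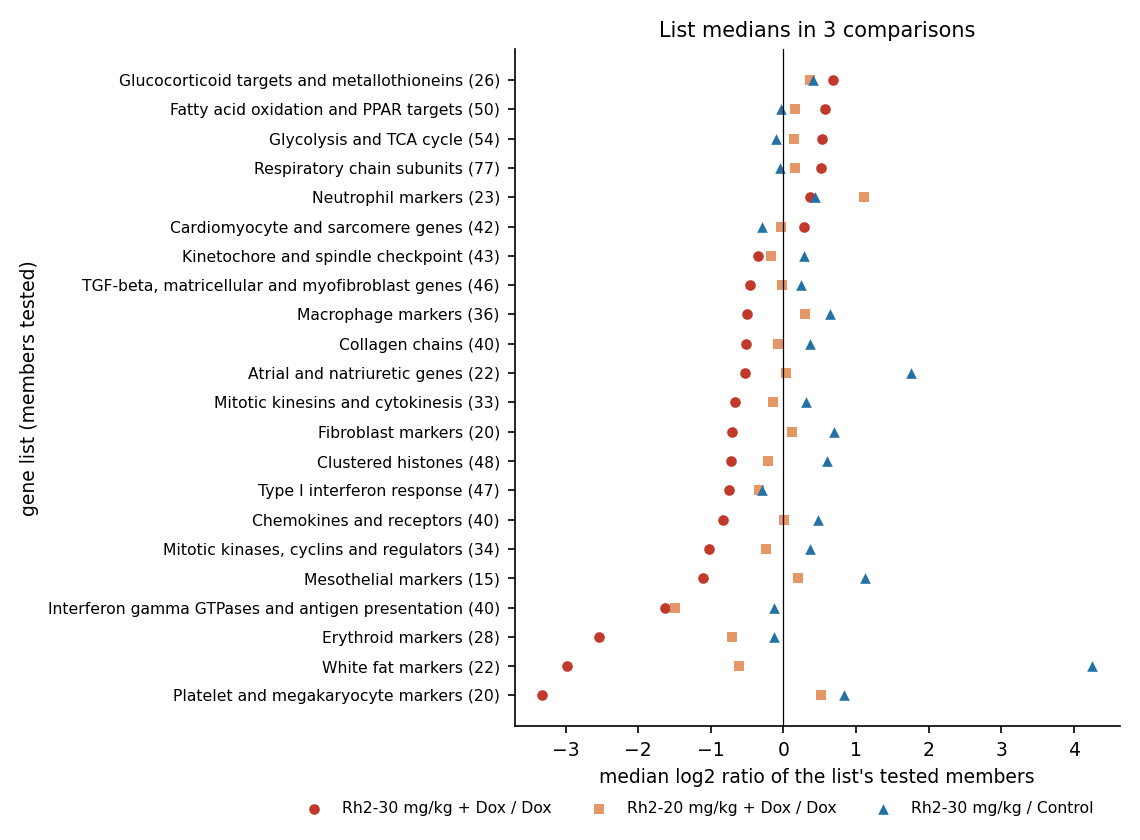
Median log2 ratio of 22 gene lists (tested members in brackets) in Rh2-30 mg/kg + Dox over Dox (circles), Rh2-20 mg/kg + Dox over Dox (squares) and Rh2-30 mg/kg over Control (triangles), with 1 library a side in each. The interferon gamma list is at -1.63, -1.50 and -0.13 in this order and white fat at -2.98, -0.61 and 4.25.

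Many of the genes that were lower than in Dox were low against Control too. Of the 1348, the combination library was the lowest of the 6 for 910 (67.5%, against 23.1% of all tested genes), and 650 (48.2%) were also 2-fold or more below Control. Of the 505 higher genes it was the highest of the 6 for 204 (40.4%, against 20.1%). The choice of genes by their level in this library raises these shares, which are given as a description.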

How the data were processed

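RNA of hearts was sequenced in 6 libraries of 5 pooled hearts each, prepared with the SureSelectXT RNA Direct kit, which enriches transcripts with capture probes, on an Illumina HiSeq2500 with 101 base reads. Per the labels and the study's methods, the authors trimmed reads with Trimmomatic, aligned them to mm10 with HISAT2 2.1.0 and assembled and quantified transcripts with StringTie 2.1.3b, and they deposited a read count per gene, used here as deposited. The deposited FPKM values (scaled by the authors to transcript length and depth with StringTie) served as an alternative, and the deposited TPM values (scaled by the authors to the same total in every library) were not used. The strand setting of the counting is not given in the sources used here, so overlapping and antisense genes cannot be told apart.

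Groups came from the labels. Genes with a mean of 10 or more counts over the 6 libraries were kept, counts were scaled with TMM factors (edgeR 4.0.16 in R 4.3.3), and the log2 ratio was taken after adding 0.5 normalized counts. A 95% exact binomial interval for each ratio (scipy 1.17.1) covers counting error only, and 3 counts were taken as the floor of a library at 0. With 1 library a side no test between conditions was made and no p-value computed. A gene was counted as higher or lower at 2-fold. The scripts were tested on simulated data. Gene lists (57 lists, 1918 entries, 1901 found in the files, 54 of them by a synonym) and members were chosen with earlier results of these data known. Genes named are the 12 highest and 12 lowest ratios among genes with 20 or more counts in both libraries and 100 in one, leaving out Gm, LOC and Rik symbols, the 5 with the most counts among those at 3 or fewer in one library and 100 or more in the other, up to 5 members per list with the largest ratios at 50 or more counts, defining members of each list and the genes the study followed. Some genes that this rule names are not reported here. Other members named to make up a small count were chosen after their values were seen. Promoter sequences, coordinates and symbols came from RefSeq on GRCm38.p6. Promoters matched 12805 of the 18328 tested genes and positions 18301. Alternatives were 3 other scalings, of which one used DESeq2 1.42.0 size factors, another prior count, FPKM, other filters and another fold.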

Additional observations from a re-analysis of the deposited data

Results flagged for a closer look

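Some lists and genes differed in opposite directions at 30 mg/kg Rh2 with and without Dox, and are given for that reason. Each direction comes from 1 library a side, and the difference between them was not tested. Median log2 ratios with Dox (combination over Dox) and without (30 mg/kg Rh2 alone over Control) were -0.51 and 0.65 for macrophage markers, -0.66 and 1.13 for T, NK and B cell markers, -3.32 and 0.83 for platelet markers, -0.71 and 0.69 for fibroblast markers, -1.11 and 1.12 for mesothelial markers, -0.52 and 1.76 for atrial genes, -2.98 and 4.25 for white fat markers, -1.08 and 2.42 for lung markers and -0.72 and 0.60 for clustered histones.

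Among single genes, the log2 ratio with Dox was -6.73 for Cfd, -6.24 for Cyp2e1, -5.58 for Mybphl, -5.49 for Myl4 and -4.04 for Tubb1. Without Dox the same genes had 5.35 (Cfd), 5.40 (Cyp2e1), 9.09 (Mybphl), 7.80 (Myl4) and 1.51 (Tubb1). Sln was at least 630.1-fold lower and Ces1f at least 115-fold lower with Dox, where neither was counted in the combination, and both were higher in 30 mg/kg Rh2 alone than in Control, at log2 ratios of 9.90 (Sln) and 5.98 (Ces1f). Most of these genes are markers of white fat, atrial muscle or platelets, and the share of such tissue in each pool of hearts was not measured.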

How the results depend on the processing

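Over 22 list medians and 198 alternative values no sign changed. Of these values 29 moved by more than the median half-width of the single members' counting intervals, mostly where FPKM replaced counts. That width is not the counting error of a median and differs between lists, from 0.02 for sarcomere genes to 0.39 for mitotic regulators, for example. Of 85 named genes under 510 alternatives, 84 values moved outside the gene's own counting interval and 4 changed sign. The sign changes were all of 2 genes with a log2 ratio near 0: Tlr5 (-0.01, and 0.01 with TMM over the 2 libraries) and Tlr7 (-0.02, and 0.00 with that scaling, 0.27 with FPKM plus 1 and 0.45 with FPKM plus 0.1). The number of genes 2-fold or more higher (505) was 29 with FPKM plus 1, 165 with FPKM plus 0.1, 2481 with no filter, 70 with a mean of 100 counts or more and 1481 at 1.5-fold, and the number lower (1348) was 231, 744, 3072, 572 and 2628. A larger constant shrinks the ratios of low genes and a looser filter admits thinly counted ones.

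With FPKM plus 1 the medians were -1.33 for interferon gamma genes, -0.64 for type I interferon genes, -0.20 for mitotic regulators, -0.18 for kinesins, -1.69 for platelet, -1.24 for erythroid, -0.33 for white fat, -0.13 for mesothelial and -0.62 for fibroblast markers, -0.34 for atrial genes, -0.21 for collagens, -0.38 for TGF-beta genes, -0.28 for chemokines, 0.26 for sarcomere genes, 0.48 for the respiratory chain, 0.53 for fatty acid oxidation, 0.49 for glycolysis and the TCA cycle and 0.59 for glucocorticoid targets. With FPKM plus 0.1 they were -1.47 for interferon gamma genes, -2.77 for platelet, -1.96 for erythroid and -1.16 for white fat markers, 0.26 for sarcomere genes and 0.50 for glycolysis and the TCA cycle. Library totals gave 0.26 for sarcomere genes. White fat markers, the least stable list, had -2.55 with a prior count of 2, -3.23 with no filter, -1.24 for genes counted in all 6 libraries and -1.35 at a mean of 100 counts or more.

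With 1 library a side, there was no replicate to leave out. No paired analysis was possible because this comparison has 1 library a side. Depth limited the genes with 10 to 100 counts, and the pools limit what any ratio says of single animals.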
